A study of Mus musculus with 2 samples.

Results

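The microRNA (miRNA) genes described here are those named Mir297, Mir466, Mir467 and Mir669 that lie on the plus strand of chromosome 2 inside the gene Sfmbt2. They were chosen by symbol, strand and position in the GENCODE annotation of the mouse assembly GRCm38 (mm10). Their counts do not enter this rule, but earlier results of these data were known when it was chosen. The rule found 59 of the 1973 miRNA genes in the deposited counts. The libraries hold small RNA from hearts of healthy mouse embryos of strain B6NCrl, an unmodified laboratory strain, at embryonic day 15.5. The hearts of 78 embryos were combined for replicate 1 and those of 62 for replicate 2, with both sexes in each pool. There is 1 group and no second condition, so the data give the level of each gene in the embryonic heart and the difference between 2 pools, not between single embryos.

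A miRNA is cut from a hairpin-shaped transcript and lowers the output of mRNAs that pair with its seed, bases 2 to 8 of the mature strand. Sfmbt2 encodes a Polycomb-group protein, and it is imprinted in the mouse, being transcribed mainly from the paternal copy in early embryos and placenta. The miRNA cluster in its intron is a tandem array that arose in rodents, and it is best known from the placenta, where its loss impairs growth. Its hairpins hold repeats of alternating UG and CA steps, and many of them are near copies of each other. Values below are counts per 1000000 counts on the strand of a miRNA gene (CPM), each count standing for 1 read of a hairpin, and are not divided by length. Counts of a hairpin do not tell its arms apart.

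Mature sequences of the same families hold such repeats to different extents. In the RefSeq miRNA table (GRCm38.p6) 0 of the 59 genes matched an entry by symbol, while 8 of the 10 measured genes of these families elsewhere in the genome did. The following 5 are shown because they span the range from mostly UG or CA repeat to little of it. Seeds are in capitals.
mmu-miR-466i-3p (chr13:17747552-17747573, plus strand): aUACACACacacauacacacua
mmu-miR-466k (chr3:85467396-85467418, plus strand): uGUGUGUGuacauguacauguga
mmu-miR-467f (chr11:69635419-69635439, minus strand): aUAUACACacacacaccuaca
mmu-miR-467h (chr9:115381898-115381919, plus strand): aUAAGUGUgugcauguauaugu
mmu-miR-669n (chr3:115979905-115979924, plus strand): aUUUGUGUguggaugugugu
Runs of at least 6 bases of alternating UG or CA made up 77.3% of mmu-miR-466i-3p, the highest of the 8 matched sequences, 57.1% of mmu-miR-467f, 39.1% of mmu-miR-466k and 31.8% of mmu-miR-467h, the lowest. The 8 matched sequences had 8 different seeds. All 10 genes of these families outside Sfmbt2 had 0 counts in both libraries, which leaves room for up to 3 counts, equal to 0.872 CPM in the first library and 0.514 CPM in the second. Intervals and these limits cover counting error only.

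Replicate 1 held 3439539 counts on miRNA genes and replicate 2 held 5833156. The labelled tissue was checked against marker miRNAs. The 4 heart muscle markers (Mir208a, Mir208b, Mir499 and Mir490) were all detected and summed to 62459 and 45592 CPM in replicates 1 and 2. The epithelial list of 6 genes summed to 1452 and 5754 CPM, and the liver miRNA Mir122 had 87.2 and 309 CPM. The endothelial miRNA Mir126a had 79217 and 67775 CPM, the smooth muscle list summed to 83564 and 89291 CPM, and the erythroid list to 2376 and 986 CPM. Of the 6 genes of the Mir290 to Mir295 cluster, which marks pluripotent cells and trophoblast, 3 were detected, Mir290a was at 0, and the sum was 36.3 and 35.8 CPM. In whole-tissue RNA, fewer cells that make a miRNA and less of it per cell cannot be told apart.

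The cluster made up a small share of the heart's counted miRNA. Its members held 8682 counts in replicate 1 and 17988 in replicate 2, or 2524 and 3084 CPM, with a mean of 2804 ± 396 CPM (SD, n = 2). This was 0.252% of the miRNA counts in replicate 1 (0.247% to 0.258%) and 0.308% in replicate 2 (0.304% to 0.313%), with exact binomial 95% intervals in parentheses. All of it lay on the strand of Sfmbt2, since the opposite strand had 0 counts over all 59 members in both libraries. The members span 51.6 kb, from position 10466663 to 10518279 of chromosome 2. They all lie in 1 intron, from 10461473 to 10523944, which is intron 10 or intron 11 in the annotated transcripts of 23 exons. No member overlaps an annotated exon of Sfmbt2, which itself runs from 10370510 to 10595253.

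Few members carried these counts. At least 10 counts in both libraries, the threshold of detection, were reached by 9 of the 59 members (15.3%), beside 327 of all 1973 miRNA genes (16.6%). Another 10 members had between 1 and 6 counts in at least 1 library, together 12 counts in replicate 1 and 22 in replicate 2. The other 40 members (67.8%) had 0 counts in both, beside 1286 of all miRNA genes (65.2%). The shares of detected and of empty genes thus lay near those of all miRNA genes. The 9 detected members held 99.9% of the cluster counts in each library.

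**Figure D1:**
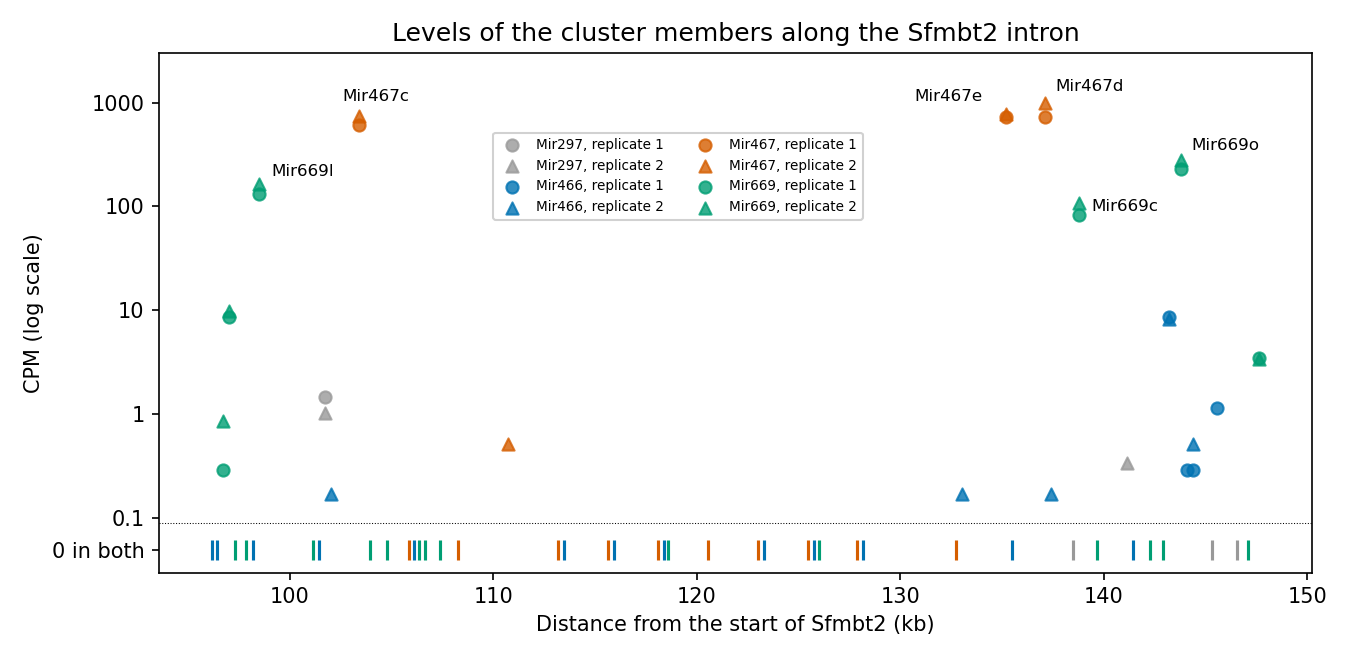
Level of each member (CPM, log axis) against its distance from the start of Sfmbt2 in kb, circles for replicate 1 and triangles for replicate 2, coloured by family. Ticks at the bottom mark the 40 members with 0 counts in both libraries, and a member with counts in only 1 library has 1 symbol. The 6 members above 50 CPM lie on either side of a stretch of 26 measured but undetected members between Mir467c and Mir467e.

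Mir467d, Mir467e and Mir467c led the cluster. Mir467d (ENSMUSG00000077021.2, positions 10507630 to 10507714) had 2482 counts in replicate 1 and 5720 in replicate 2, or 722 and 981 CPM. Mir467e (ENSMUSG00000076948.2, 10505721 to 10505807) had 2480 and 4565 counts, or 721 and 783 CPM. Mir467c (ENSMUSG00000077049.2, 10473931 to 10474027) had 2106 and 4344 counts, or 612 and 745 CPM. All 3 were lower on the CPM scale in replicate 1 than in replicate 2, and Mir467d by the widest margin. Their means of 851 ± 183, 752 ± 43.5 and 678 ± 93.6 CPM (SD, n = 2) had overlapping ranges. Within each library, however, Mir467d exceeded Mir467c 1.18 times (1.11 to 1.25) in replicate 1 and 1.32 times (1.27 to 1.37) in replicate 2, and Mir467e exceeded Mir467c 1.18 times (1.11 to 1.25) and 1.05 times (1.01 to 1.10), by exact binomial 95% intervals. The log2 of these ratios had means of 0.32 ± 0.11 and 0.15 ± 0.12 (SD, n = 2). They ranked 84, 87 and 92 among the 327 detected miRNA genes. Together they made up 81.4% of the cluster counts in replicate 1 (80.6% to 82.2%) and 81.3% in replicate 2 (80.7% to 81.9%), again with exact intervals.

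Members of the Mir669 family came next. Mir669o (ENSMUSG00000077086.1, 10514300 to 10514395) had 791 and 1617 counts in replicates 1 and 2, or 230.0 and 277 CPM. Mir669l (ENSMUSG00000076959.1, 10468971 to 10469068) had 451 and 959 counts, or 131 and 164 CPM. Mir669c (ENSMUSG00000076118.1, 10509296 to 10509404) had 288 and 635 counts, or 83.7 and 109 CPM. The values of these 3 did not overlap with each other or with those of the 3 leading Mir467 genes. Mir669o ranked 133, Mir669l 162 and Mir669c 186 of the detected genes, whose median level was 146 CPM.

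The last 3 detected members were near the threshold. Mir669e (ENSMUSG00000080653.1, 10467495 to 10467613) had 30 counts in replicate 1 and 58 in replicate 2, or 8.72 and 9.94 CPM. Mir466n (ENSMUSG00000077991.1, 10513741 to 10513834), the only detected gene of the Mir466 family, had 30 and 48 counts, or 8.72 and 8.23 CPM. Mir669h (ENSMUSG00000080594.1, 10518155 to 10518279) had 12 and 20 counts, or 3.49 and 3.43 CPM. The values of Mir669e and Mir466n lay within each other's counting error, and the ratio of the highest to the lowest detected member was 246.

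The families differed in what was counted, and also in how many members have hairpin sequence of their own, as given below. The 14 Mir467 members summed to 2055 and 2508 CPM in replicates 1 and 2 (2282 ± 321, SD, n = 2), with 3 detected and 10 at 0 in both. The 20 Mir669 members summed to 457 and 565 CPM (511 ± 75.9), with 5 detected and 14 at 0. The 20 Mir466 members summed to 10.5 and 9.26 CPM (9.86 ± 0.855), with 1 detected and 13 at 0. The 5 Mir297 members had 5 and 8 counts in all, with 0 detected, and 11 of these 13 counts were on Mir297a-2. The Mir467 family held 81.4% and 81.3% of the cluster counts, the Mir669 family 18.1% and 18.3%, and the Mir466 family 0.415% and 0.300%.

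The order of the members was the same in both libraries for the 6 genes above 50 CPM, although Mir467d and Mir467e differed by only 2 counts in replicate 1. Mir669l exceeded Mir669c 1.57 times in the counts of replicate 1 (1.35 to 1.82, exact binomial 95% interval) and 1.51 times in those of replicate 2 (1.36 to 1.67). Mir669o exceeded Mir669l by a ratio of 1.75 (1.56 to 1.97) and 1.69 (1.56 to 1.83), and its ratio to Mir467c was 0.376 (0.346 to 0.408) and 0.372 (0.351 to 0.394). The intervals of these 3 ratios overlap between the libraries. For the 3 ratios among Mir467c, Mir467d and Mir467e they do not, including those of Mir467d and of Mir467e to Mir467c given above. The ratio of Mir467d to Mir467e was 1.00 in replicate 1 (0.946 to 1.06) and 1.25 in replicate 2 (1.20 to 1.30). Ratios within a library do not depend on how the libraries are scaled to each other. All 6 pairs were chosen after their values were seen.

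**Figure D2:**
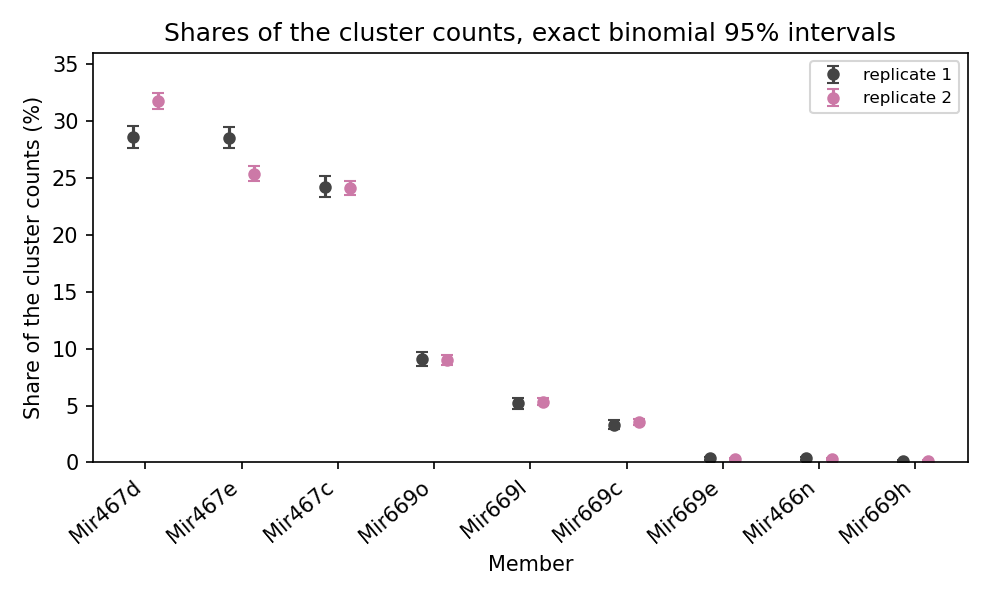
Share of the cluster counts (%) held by each of the 9 detected members in replicate 1 (dark) and replicate 2 (pink), with exact binomial 95% intervals. The intervals of Mir467d (28.6% and 31.8%) and of Mir467e (28.6% and 25.4%) do not overlap between the libraries, whereas those of the other 7 do.

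Of the 40 members with 0 counts, 20 had no 20-base stretch of hairpin that is absent from all other annotated miRNA hairpins. In the deposited files a read that matched several places is on a line of its own and under no gene, and such reads were 33.0% of all reads in replicate 1 and 30.1% in replicate 2. How many of them came from this cluster was not tested. Each hairpin was cut into windows of 20 bases, close to the length of a miRNA, and a window was called its own when it occurred in no other annotated miRNA hairpin on either strand. By this measure 20 of the 59 members had no window of their own, and all 20 had 0 counts in both libraries. They were 10 of the 14 Mir467 members, 6 of the 20 Mir466, 4 of the 20 Mir669 and 0 of the 5 Mir297 members. Sums and zeros of the families are therefore not measured alike. The 6 members with 1 to 19 windows of their own had 0 and 3 counts in all, those 3 on Mir467b. Of the 33 members with at least 20 such windows, 9 were detected, 9 had a few counts and 15 had none. All detected members thus belong to the class with most sequence of its own, but many members of that class were not counted either.

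The same measure was taken over the other measured miRNA genes with an annotated hairpin. Of 244 with no window of their own, 4 were detected (1.64%), with a mean of up to 124898 counts, and of 116 with 1 to 19 windows, 4 were detected (3.45%). Of 1475 with at least 20 windows, 310 were detected (21.02%), beside 9 of 33 (27.3%) in the cluster. The median share of own windows was 29.9% in the cluster and 100% in the other genes. The rest of the genome, in which UG and CA repeats are common, was not searched, so that a window called own here can still match elsewhere.

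**Figure D3:**
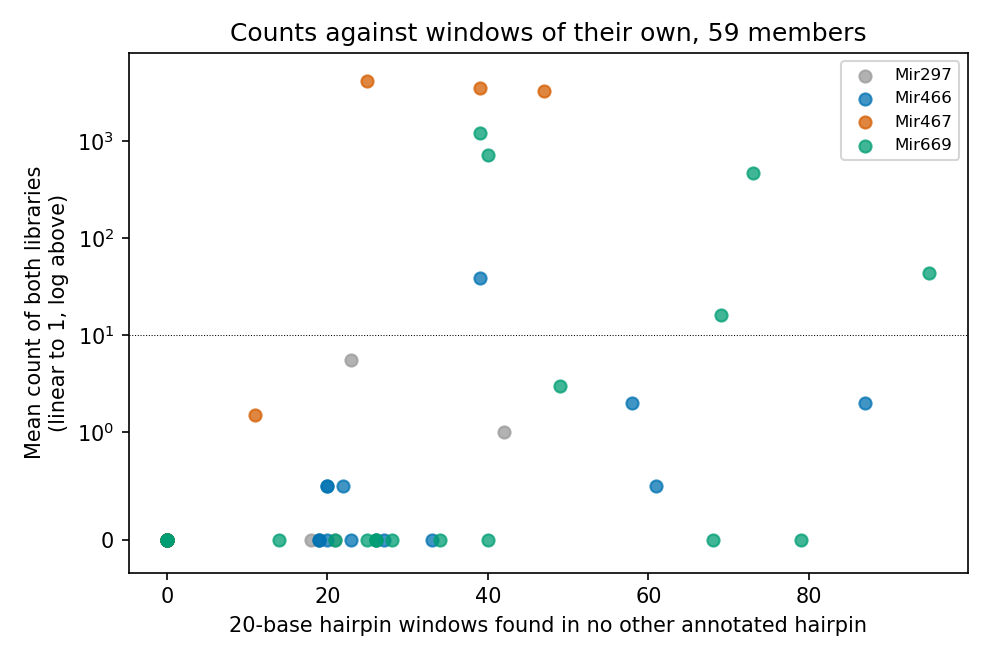
Mean count of both libraries (linear up to 1, log scale above) against the number of 20-base hairpin windows found in no other annotated miRNA hairpin, 1 point per member (59), coloured by family. The dotted line marks 10 counts. Points at 0 windows (20 members) all lie at 0 counts, and the 9 members above the line have 25 or more windows of their own.

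The measured genes in the middle of the cluster were nearly without counts. Between Mir467c and Mir467e lie 26 measured members in a row, from Mir669a-3 to Mir466b-3 (10474433 to 10503645, 29.2 kb). They had 0 counts in replicate 1 and 4 in replicate 2. Another 12 annotated genes of these families, from Mir466b-1 to Mir669a-12, also lie between Mir467c and Mir467e. Their IDs are outside the deposited counts, so nothing can be said of their levels. Of the 1973 counted IDs, 1894 matched the annotation used here. Whether the rest include these 12 genes under older IDs was not tested. Of these 26, 19 had no window of their own, and they make up all but 1 of the 20 such members. The stretch holds the 10 genes Mir467a-1 to Mir467a-10 and Mir467b, whose starts follow each other at a median of 2454.5 bp (2413 to 4880 bp, 10 spacings). The hairpins of Mir467a-2, Mir467a-4, Mir467a-5, Mir467a-7, Mir467a-8 and Mir467a-9 are identical, as are those of Mir467a-3, Mir467a-6 and Mir467a-10. Identical pairs also join Mir466b-4 with Mir466b-6, Mir466b-5 with Mir466b-7, and Mir669p-1 with Mir669p-2. In all, 17 members share their whole hairpin with another annotated miRNA gene, and all 17 had 0 counts. At the ends of the cluster, the runs of undetected members between detected ones held 1 to 6 genes each.

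The detected Mir467 genes resemble the uncounted Mir467a genes to different degrees. Mir467d and Mir467a-2 share a stretch of 60 bases and are 89.4% identical over the hairpin, and Mir467d had 2482 and 5720 counts where Mir467a-2 had 0. Mir467e is 83.9% identical to Mir467a-2 and Mir467c 76.3%, each with a longest shared stretch of 34 bases. In Mir467d, 19 of the 23 windows on the 5′ side of the hairpin were its own, against 6 of 23 on the 3′ side. In Mir467c the balance was the other way, with 17 of 29 on the 5′ side and 29 of 29 on the 3′ side. Mir467e had 20 of 24 and 19 of 24. Mir467d and Mir467e are 92.0% identical with a longest shared stretch of 34 bases, and Mir467e and Mir467c 84.5% with 48 bases. Whether these unequal shares of own sequence set the order of the counts was not tested.

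Set against counting noise alone, Mir467d and Mir467c were higher in replicate 2, while the other detected members did not pass the test. For each miRNA gene with at least 10 counts in all, the libraries, scaled by TMM (trimmed mean of M values), were set against each other in an exact conditional binomial test, two-sided, with Benjamini-Hochberg adjustment over 413 genes. This test sets 2 libraries against counting noise and compares no conditions. Of the 10 members tested, 2 were called higher in replicate 2 and 0 in replicate 1 at an adjusted p of 0.05, where 24.7% and 21.8% of all tested genes were so called. For replicate 2 the share of members called thus lay near that of all tested genes. Mir467d was higher in replicate 2 by a log2 ratio of replicate 1 to replicate 2 of -0.27 (95% interval -0.34 to -0.20), with an adjusted p of 1.93e-14 in the exact test. Mir467c was higher in replicate 2 by a log2 ratio of -0.11 (-0.19 to -0.03), with an adjusted p of 0.0111 in the exact test.

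Mir467e gave a log2 ratio of 0.05 (-0.02 to 0.13) and an adjusted p of 0.221 in the exact test. For Mir669c the log2 ratio was -0.21 (-0.41 to -0.00252) and the adjusted p 0.0883 in the exact test. Ratios of the other 5 detected members ran from -0.15 for Mir669l to 0.26 for Mir466n, and none of these passed. Over the 9 detected members the median size of the log2 ratio was 0.15, beside 0.24 over all 327 detected genes. The log2 ratio of the summed cluster was -0.12 (-0.15 to -0.08). In the same libraries 6 of 6 epithelial markers and Mir122 of the liver were called higher in replicate 2, and 3 of 4 heart muscle markers higher in replicate 1. Also higher in replicate 1 were Mir126a of the endothelium, both smooth muscle markers (Mir143 and Mir145a) and 1 of 2 erythroid markers, Mir451a, with a log2 ratio of 1.98. The direction of Mir143 depends on the scaling, since its TMM-scaled log2 ratio was 0.07 while its CPM was lower in replicate 1 (82454) than in replicate 2 (88393). Of the trophoblast list 0 genes were called in either direction. In that list Mir290a (0 and 0 counts) and Mir295 (2 and 3 counts) were too low to be tested. The part of these other cells in the differences of Mir467d and Mir467c was not tested.

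Total counts in place of TMM shifted the median log2 ratio of all tested genes from -0.04 to -0.21. In that setting 6 members were called higher in replicate 2, and Mir467e turned to -0.12. Of all 413 tested genes, 203 were then called in either direction. With DESeq2 size factors Mir467d was called higher in replicate 2 (log2 ratio -0.23) and Mir467e higher in replicate 1 (0.09). Mir467c was not called with these factors (-0.07, adjusted p 0.128 in the exact test). Among all 413 tested genes, 188 were called in either direction with them. When the spread between both libraries was put into the test as a common dispersion (edgeR exact test), 0 members were called, 0 at an unadjusted p of 0.05, and 7 of all 413 genes. This dispersion was estimated from the same libraries, so the differences under test are part of it. The setting therefore cannot decide on ratios as small as those of the members.

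**Figure D4:**
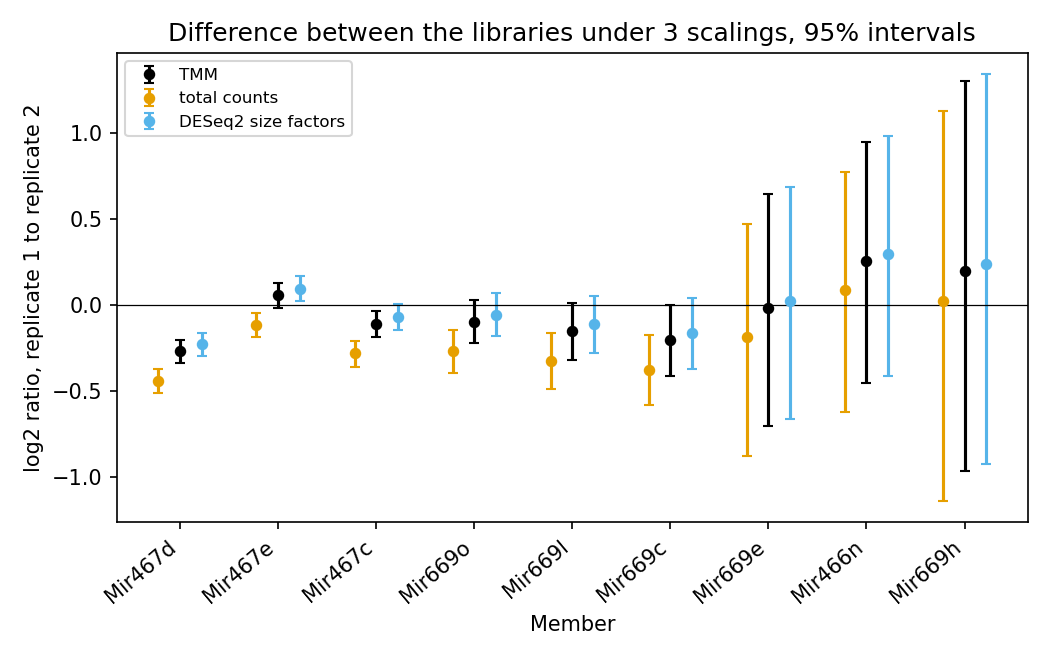
log2 ratio of replicate 1 to replicate 2 for the 9 detected members under 3 scalings, with exact 95% intervals for counting error. Mir467d lies below 0 under all 3 (-0.44 to -0.23), and Mir467e lies below 0 with total counts (-0.12) and above 0 with TMM (0.05) and DESeq2 size factors (0.09).

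The imprinted miRNA cluster of the Dlk1-Dio3 region on chromosome 12, from Mir341 to Mir3072, gives a scale for these values. Of its 39 measured genes 32 were detected (82.1%) and 3 were at 0 in both, against 9 and 40 of 59 in Sfmbt2. It summed to 23745 and 29537 CPM in replicates 1 and 2, against 2524 and 3084 CPM. Only 1 of its genes had no window of its own, against 20 of 59, and its median share of own windows was 100%. No test of these differences was made, because the genes of a cluster are not replicates.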

How the data were processed

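The authors deposited whole, unnormalized read counts per miRNA gene, 1 file per library, on mm10 with the GENCODE M4 annotation, per the text files deposited beside them. Names of the aligner, trimming and counter were not given in the sources used here. From their values, the 3 columns of deposited counts were read as both strands, the gene's own strand and its opposite, and the own strand was used. Lines that name no gene stayed out of totals. In replicates 1 and 2 they were, as shares of all reads, multiply matching reads (33.0% and 30.1%), unmapped reads (13.1% and 15.1%) and reads on no gene (5.11% and 5.07%).

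IDs were matched without version to GENCODE M21 (1894 of 1973), which gave symbols, positions and 2202 hairpins. Another 12 annotated genes of the families, all between Mir467c and Mir467e, have IDs outside the counts and were not analysed here. Whether the counts hold them under older IDs without a match was not tested. Windows of 20 bases in hairpins took the place of mature sequences, and seed groups of the members were not analysed here. Hairpins were folded with RNAfold (ViennaRNA 2.7.2).

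CPM, mean and SD (n = 2) and exact binomial (Clopper-Pearson) 95% intervals were computed in Python 3.11.15 with scipy 1.17.1. Libraries were scaled by TMM factors (0.942 and 1.06, edgeR 4.0.16), with total counts and DESeq2 1.42.0 size factors as alternatives. The exact conditional binomial test was run on all genes with at least 10 counts summed. It was tested on simulated data that held counting noise but no further spread between libraries. Those data cannot show how the test behaves where pools differ by more than counting noise. Its p-values measure departure from counting noise and take no account of the spread between pools. The edgeR exact test adds a common dispersion estimated from the same libraries. Nothing says that the pools shared no processing. Named genes are all detected members, members called between the libraries, and the leading members and relatives; further members are examples of copies, chosen after their values were seen. The members and lists were chosen with earlier results of these data known.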

Additional observations from a re-analysis of the deposited data

How the results depend on the processing

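The summed level of 2804 CPM became 1382 per 1000000 when all reads of a library were the denominator, and was 2656 CPM with counts on either strand and 2524 to 3084 CPM with 1 library left out. Leaving out the 20 members without a window of their own, an alternative chosen after seeing the data, left it at 2804 CPM, since they had no counts. The number of detected members was 12, 10 and 6 with a minimum of 1, 5 and 50 counts. Members called higher in replicate 2 numbered 2 with TMM, 6 with total counts, 1 with DESeq2 size factors and 0 in the edgeR exact test with a common dispersion. That dispersion came from the same libraries, so the last of these counts cannot decide on small ratios. Members called higher in replicate 1 numbered 0 with TMM and 1 with DESeq2 size factors. Of all 413 tested genes, 192 were called in either direction with TMM, 203 with total counts and 188 with DESeq2 size factors. The edgeR exact test called 7 of the 413. Both members called with TMM were also called with a minimum of 1 or 50 counts and on either strand. Mir467c was no longer called with DESeq2 size factors (-0.07, adjusted p 0.128 in the exact test). The cluster log2 ratio of -0.12 was -0.29 with total counts, -0.076 with DESeq2 size factors and -0.0495 without Mir467d. Windows of 18 or 22 bases, chosen after seeing the data, also gave 20 members without a window of their own, with a count on 0 of them. The cluster level without members whose mature arms occur at several places was not run. With 2 libraries, differences smaller than the spread between pools cannot be resolved, and for Mir669e, Mir466n and Mir669h the counting error alone spans a log2 ratio of more than 1.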

Other observations

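Besides the named families, 48 other measured miRNA genes lie on the same strand in the region of Sfmbt2. They had 3 counts in replicate 1 and 8 in replicate 2 in all, on 4 genes, of which Gm22925 (positions 10510791 to 10510892) had 2 and 4. Of the 48, 22 had no window of their own.

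Hairpin composition was set side by side for counted and uncounted members. Runs of alternating UG or CA steps made up a median of 31.0% of the hairpin in the 9 detected members, 27.4% in the 10 with few counts and 27.7% in the 40 with none, beside 0% in the other measured genes. The median G and C content was 39.4%, 37.0% and 36.8%, beside 51.5%. Predicted folding energies had medians of -39.7, -35.2 and -38.2 kcal/mol, beside -33.6 kcal/mol. The hairpins differed in length, with medians of 97, 82.5 and 90 bases, beside 90 bases. Per base the median energies were -0.387, -0.394 and -0.409 kcal/mol, beside -0.376 kcal/mol. Among the groups of members, the detected ones thus had the most stable median fold in total but the least stable per base. Other measured genes that were detected had medians of -36.9 kcal/mol and -0.435 kcal/mol per base. The most stable predicted fold among the 59 was that of Mir466n, at -53.9 kcal/mol, which had only 30 and 48 counts. Mir467c, with 2106 and 4344 counts, had -28.9 kcal/mol. These are descriptions over members that share sequence, with no test.

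Of the members with no counts, Mir669i and Mir669b had the most sequence of their own, with 79 of 108 and 68 of 78 windows. Mir669i is 85.8% identical to the detected Mir669h. Both were chosen after their values were seen.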
